A study of Gallus gallus with 18 samples.

Results

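The feeding response of the liver was compared with the feeding response of the ovary in the same hens. The comparison used 12 of the 18 libraries of the series, 6 from liver and 6 from ovary. The hens were Arbor Acres broiler breeders, a heavy meat-type line kept to produce broiler chicks, and were 30 weeks old. All had been reared to target body weight until 21 weeks of age and moved to individual laying cages. From 22 weeks, 3 hens ate ad libitum, here called AL1 (libraries G1721 of liver and M1721 of ovary), AL2 (G1723, M1723) and AL3 (G1725, M1725). The other 3 hens stayed on the restricted ration of the breeder guide, here called R1 (G1724, M1724), R2 (G6709, M6709) and R3 (G6710, M6710), and values are given in this order of hens. Each hen gave 1 liver and 1 ovary library, and the ovary sample was stroma together with small follicles, so its makeup of cell types was mixed. Each value of the comparison is an interaction, that is, the log2 fold change of ad libitum over restricted feeding in liver minus the same fold change in ovary, with the hen as a block. A positive interaction means a higher ad libitum to restricted ratio in liver than in ovary. Genes above 1 CPM, the count scaled to a common library total, in all 3 libraries of a feeding group in either tissue were tested, which left 13139 of 17108 genes.

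In a laying hen the liver makes fatty acids, yolk lipoproteins and vitellogenins and sends them through the blood to the growing follicles, and it also stores and releases glucose. The ovary takes up these yolk precursors into oocytes, while its granulosa, theca and interstitial cells make steroid hormones. Feed intake reaches both organs through insulin, glucagon and circulating lipids. Feed restriction of broiler breeders is practised because hens with free access to feed lay poorly.

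Total counts ranged from 17954518 to 23261748 per library, and 3 counts corresponded to 0.129 to 0.167 CPM. Levels are given as CPM normalized by the trimmed mean of M-values (TMM) over the 12 libraries. The TMM factors were 0.465 to 0.549 in liver and 1.75 to 2.06 in ovary, so liver levels stand higher and ovary levels lower than plain CPM would. The part of this scaling common to a tissue cancels within that tissue but sets the distance between tissues. The part that differs between libraries of a tissue enters the interaction. Hepatocyte markers summed to 224786 to 287837 CPM in liver and to 11.9 to 158 CPM in ovary. Granulosa markers summed to 421 to 849 CPM in ovary and 2.77 to 6.77 CPM in liver, and oocyte markers to 116 to 373 and 0.323 to 1.65 CPM, so the libraries carried the defining genes of their labelled tissue. The ovary library of hen AL2 stood apart, with 4526 CPM of erythroid markers against 60.9 to 529 CPM in the other ovaries and 3196 CPM of chromaffin markers against 62.2 to 194 CPM. In the ovary of hen R1 DES, a muscle intermediate filament, was at 1792 CPM against 107 to 412 CPM in the others. In bulk tissue, fewer cells of a type and less RNA per cell cannot be told apart. Each tissue was sampled once per hen. A p-value of the interaction therefore rests on how the liver to ovary difference varies between hens, together with the technical spread. A p-value within a tissue rests on the spread between hens and the technical spread together.

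No gene passed a false discovery rate (FDR) of 0.1 in the edgeR quasi-likelihood test of the interaction, 0 of 13139 (0.0%), and the smallest FDR was 0.81. At an unadjusted p below 0.05 there were 805 genes (6.13%), of which 297 (2.26%) had a higher and 508 (3.87%) a lower feeding effect in liver than in ovary. The share of higher genes among them was 36.9% with TMM, 49.5% with RLE size factors, 45.1% with TMM within each tissue and 32.1% with library size alone, so their split by direction depended on the scaling. The median interaction of all genes was -0.07. DESeq2 called 38 genes (0.289%), 3 higher (0.0228%) and 35 lower (0.266%). It gave an adjusted p to 912 genes, of which 4.17% were called, 0.329% higher and 3.84% lower. The edgeR likelihood ratio test called 34 genes (0.259%), 12 higher (0.0913%) and 22 lower (0.167%). These lists shared 12 genes, and limma voom called 0. Without hen R2 the quasi-likelihood test called 1 gene, ANGPTL4 (FDR 0.0176). The count at p below 0.05 was 1432 without hen R1, 1238 without hen AL1, 682 without hen R2, 452 without hen AL2, 439 without hen R3 and 334 without hen AL3. Genes described from here on therefore missed the threshold for the interaction, and their values are given as measured differences with their standard errors (SE). Each SE was derived from the F statistic and restates the test.

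Within the tissues, the quasi-likelihood test called 1 of 10339 genes in liver (0.00967%), IGFBP1, and 0 of 12871 in ovary (0.0%). At an unadjusted p below 0.05 there were 1412 genes (13.7%) in liver, of which the higher made up 6.24% and the lower 7.42% of the genes tested. The ovary had 624 (4.85%), with 3.02% higher and 1.83% lower. In ovary DESeq2 called 48 genes and the likelihood ratio test 24. The liver groups did not overlap for 18.4% of the genes (8.33% higher, 10.1% lower) and the ovary groups for 9.76% (6.28% higher, 3.49% lower). The liver call did not remain without hen AL1, AL2, R1, AL3 or R3, each of which gave 0 genes, whereas 104 genes passed without hen R2. Of the 805 genes, 678 (84.2%) had fold changes of opposite sign in the tissues, a share that choosing genes by the difference of the fold changes itself raises, so nothing is read from it.

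**Figure D1:**
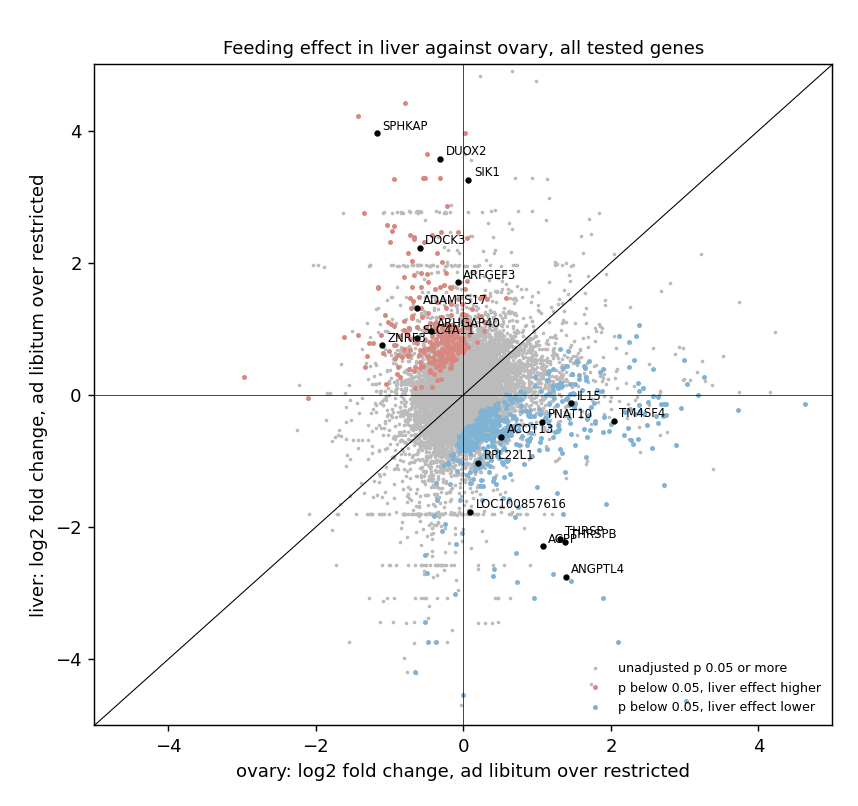
Log2 fold change of ad libitum over restricted feeding in liver (vertical) against ovary (horizontal) for 12919 genes, with the line of equal change; 3 genes beyond 5 on either axis and 217 with no read in a tissue are not drawn. Coloured points have an unadjusted interaction p below 0.05 and lie mostly in the quadrants of opposite sign, as choosing by the difference favours, and the labelled genes are those with the smallest p among named genes.

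A second view used the ratio of liver to ovary level within each hen, on the log2 scale with 0.5 CPM added. The ratios of ad libitum and restricted hens did not overlap for 1695 genes (12.9%), with 710 (5.4%) higher and 985 (7.5%) lower in the ad libitum hens. With 3 hens against 3 the smallest p of an exact two-sided permutation test is 0.1, so non-overlap is given as a description. In 55 genes (0.419%) the groups did not overlap in either tissue and differed in opposite directions, 20 with the ad libitum hens higher in liver and 35 with the ad libitum hens lower in liver. In 186 genes (1.42%) both tissues showed non-overlap in the same direction. Names were at hand for 5711 of the genes tested, those that the study lists with a symbol. Its lists were drawn up on these same samples, by feeding difference or by level, so named genes are not a neutral subset. Of these 10.8% had p below 0.05 (4.04% higher and 6.71% lower) and 16.8% had non-overlapping ratios, so named genes carried small p-values more often than the table as a whole.

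Of the 10 named genes with the smallest p and a lower feeding effect in liver, 4 are known from lipid handling, namely THRSP, THRSPB, ANGPTL4 and ACOT13. THRSP, the Spot 14 gene that is tied to fatty acid synthesis and responds to thyroid hormone and carbohydrate, was at 1308, 917 and 1182 CPM in the livers of ad libitum hens AL1, AL2 and AL3. In the livers of restricted hens R1, R2 and R3 THRSP was at 7554, 1544 and 6548 CPM. All 3 restricted livers were therefore above all 3 ad libitum livers, hen R2 by the least. In ovary THRSP was close to the detection limit, at 1.12, 0.427 and 1.38 CPM in ad libitum and 0.869, 0.098 and 0.234 CPM in restricted hens, and the groups overlapped. Its log2 fold change was -2.17 ± 0.50 (SE) in liver and 1.31 ± 0.79 in ovary, and the interaction was -3.54 ± 0.60 (n = 3 hens per group). DESeq2 gave THRSP an FDR of 4.42e-06, while the quasi-likelihood FDR was 0.81.

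THRSPB, the duplicate of THRSP in birds, showed the same order. Its liver level was 60.2, 93.6 and 29.5 CPM in ad libitum hens and 441, 150 and 282 CPM in restricted hens, which did not overlap. In ovary it was at 0.274, 2.11 and 1.11 CPM against 0.621, 0.367 and 0.338 CPM, and the groups overlapped. The interaction of THRSPB was -3.44 ± 0.72. Reads shared by the paired copies could have been split between them by the counting.

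ANGPTL4, a secreted inhibitor of lipoprotein lipase and a target of PPAR receptors, differed in opposite directions in the tissues. In liver it was at 10.6, 7.80 and 14.1 CPM in the ad libitum hens and at 96.6, 37.8 and 87.6 CPM in the restricted hens. In ovary it was at 13.2, 6.99 and 18.5 CPM in the ad libitum hens and at 3.17, 8.84 and 2.52 CPM in the restricted hens. The liver groups were far apart, and in ovary only AL2 and R2 crossed over. The log2 fold changes of ANGPTL4 were -2.75 ± 0.37 in liver and 1.39 ± 0.57 in ovary, and the interaction was -4.28 ± 0.79, ranging from -5.21 without hen R2 to -3.68 without hen R3. The qRT-PCR primers that the study lists for ANGPTL4 and for SIK1, the kinase described further on, are shown because these genes have large liver differences in each direction. The study reports ANGPTL4 as up-regulated and SIK1 as down-regulated in the ad libitum group, without naming the tissue. It describes its qRT-PCR results for them as matching. Those directions are the reverse of the liver directions given here. No qRT-PCR value was used here, so the primers lend no support to the directions given. They are printed 5′ to 3′ in lower case with nothing marked, as the study lists them.
ANGPTL4 forward: agccacaccaaccagagccata
ANGPTL4 reverse: atcaccgtccagccaccttct
SIK1 forward: ggtgcttctctcctgcctgtca
SIK1 reverse: tgttcggctgtgcgtgttgg

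PLIN2, which coats lipid droplets, had an interaction of -2.35 ± 0.81. Its liver levels of 52.7, 94.1 and 41.4 CPM in ad libitum hens overlapped the 257, 60.9 and 306 CPM of restricted hens through hens AL2 and R2. In ovary PLIN2 was at 52.9, 62.2 and 73.8 CPM against 40.8, 46.7 and 24.7 CPM, without overlap. ACOT13, an acyl-CoA thioesterase, had 111, 85.5 and 146 CPM against 238, 133 and 170 CPM in liver, where the groups overlapped, and 24.5, 27.3 and 34.1 CPM against 23.7, 15.2 and 20.8 CPM in ovary, where they did not (interaction -1.19 ± 0.26). FASN, the fatty acid synthase, had an interaction of -1.16 ± 0.57 and ME1, which supplies NADPH for lipid synthesis, of -1.56 ± 1.01, and neither reached p below 0.05. In the list of 11 fatty acid and triglyceride synthesis genes, THRSP and ELOVL2 were lower at p below 0.05. Of all genes tested 3.87% were lower, and of genes with a symbol 6.71%. No member of the list was higher, and its median was -0.45. That median was 0.04 at its highest when hens were left out in turn.

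**Figure D2:**
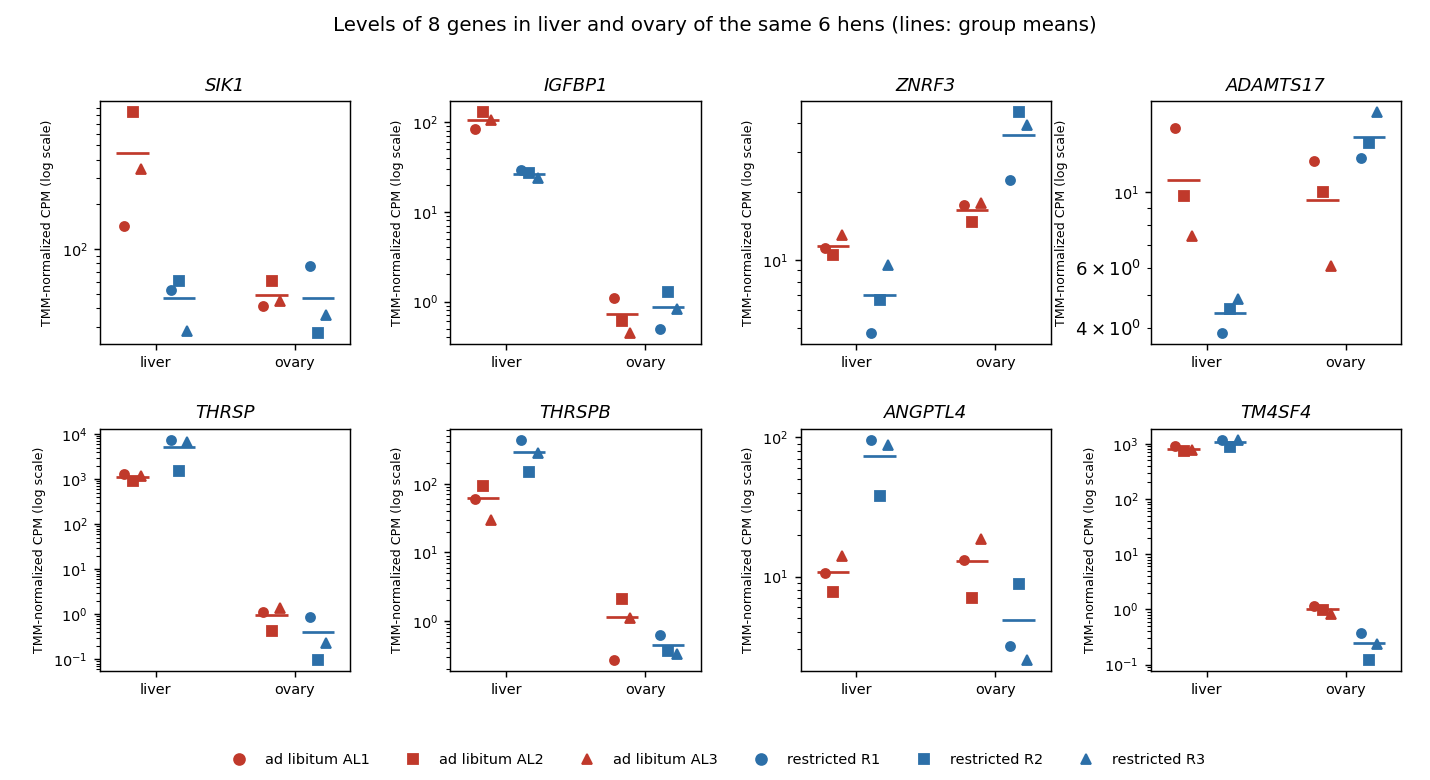
Levels of 8 genes in each of the 12 libraries, in TMM-normalized CPM on a log scale, with a horizontal line at each group mean; circles, squares and triangles are the hens of a group. SIK1, IGFBP1, ZNRF3 and ADAMTS17 are higher in all 3 ad libitum livers than in all 3 restricted livers, and THRSP, THRSPB and ANGPTL4 are lower.

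The fatty acid oxidation and PPAR list held 9 tested genes, of which 3 were lower and 1 higher at p below 0.05 (median -0.31). Of all genes tested 3.87% were lower and 2.26% higher at that p, and of genes with a symbol 6.71% and 4.04%. PDK4, a kinase that holds back glucose oxidation, was the higher member, with an interaction of 1.78 ± 0.77. Its liver level was 145, 428 and 433 CPM in ad libitum hens and 55.4, 257 and 81.0 CPM in restricted hens, which overlapped, and its ovary level was 50.6 to 114 CPM with no order by feeding. Cholesterol synthesis showed no member at p below 0.05 among 5 tested, and HMGCS1, which forms the precursor of mevalonate, had an interaction of 0.22 ± 0.58.

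Several of the other genes with the smallest p differed mainly in ovary. TM4SF4, a membrane protein of the L6 tetraspan group, was at 926, 740 and 761 CPM in ad libitum livers and 1150, 885 and 1195 CPM in restricted livers, which overlapped. Its ovary level was 1.17, 0.987 and 0.839 CPM in the ad libitum hens against 0.372, 0.122 and 0.234 CPM in the restricted hens, without overlap. These ovary levels come from 28 to 47 counts in ad libitum hens and 5 to 12 in restricted hens, and the interaction was -2.49 ± 0.40. IL15, a cytokine that sustains natural killer and T cells, was at 44.1 to 54.6 CPM in ad libitum and 50.9 to 56.8 CPM in restricted livers. In ovary IL15 was at 6.42, 13.4 and 9.50 CPM against 3.23, 4.56 and 2.68 CPM, which did not overlap, and its interaction was -1.61 ± 0.34. PNAT10, an arylamine N-acetyltransferase, did not overlap in either tissue, at 78.6, 97.8 and 133 CPM against 147, 134 and 135 CPM in liver and 5.40, 10.7 and 9.35 CPM against 4.81, 3.89 and 3.27 CPM in ovary (interaction -1.51 ± 0.29).

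LOC100857616, a gene with no further name in the annotation used, was at 38.9, 44.4 and 59.9 CPM in ad libitum livers and 175, 89.8 and 232 CPM in restricted livers. In ovary it stayed within 2.16 to 3.00 CPM in all 6 hens, so its interaction of -1.82 ± 0.32 lay in the liver. ACPP, an acid phosphatase, was at 0.323 to 0.519 CPM in ad libitum livers and 0.503 to 4.96 CPM in restricted livers, where hen R2 alone was above 1 CPM. In ovary ACPP was at 0.970, 0.987 and 0.869 CPM in ad libitum and 0.186, 0.955 and 0.156 CPM in restricted hens, overlapping through hen R2. Its interaction of -3.30 ± 0.63 rested on 3 to 59 counts per liver library and 6 to 39 per ovary library. It was -3.09 without hen R2. RPL22L1, a paralog of ribosomal protein L22, was at 38.6, 52.4 and 87.9 CPM against 141, 97.1 and 132 CPM in liver without overlap and had an interaction of -1.34 ± 0.27. All 10 genes of this direction had non-overlapping liver to ovary ratios and opposite signs in the tissues, and all 10 kept their sign when any hen was left out. They were the 10 named genes with the smallest p, so this describes how they were chosen.

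In the other direction SIK1 and IGFBP1 differed in liver and hardly in ovary. SIK1, a salt-inducible kinase that in mammals restrains gluconeogenic transcription, was at 144, 835 and 346 CPM in ad libitum livers and at 52.6, 60.5 and 27.8 CPM in restricted livers. In ovary SIK1 was at 41.5, 61.2 and 44.8 CPM against 77.1, 27.3 and 35.7 CPM. The livers did not overlap and the ovaries did. The log2 fold change was 3.26 ± 0.60 in liver and 0.07 ± 0.38 in ovary, and the interaction of 2.78 ± 0.62 had a DESeq2 FDR of 0.00222. IGFBP1, a liver-secreted binding protein of insulin-like growth factors that insulin suppresses in mammals, rose in ad libitum livers. It was at 84.4, 128 and 105 CPM against 29.2, 27.3 and 23.5 CPM, a log2 fold change of 2.01 ± 0.21 (FDR 0.0936 in the liver fit of edgeR). Its ovary level was 0.449 to 1.09 CPM in ad libitum and 0.496 to 1.27 CPM in restricted hens, with overlap, and the interaction was 2.24 ± 0.54.

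ZNRF3, a membrane ubiquitin ligase that removes Wnt receptors, did not overlap in either tissue and differed in opposite directions. It was at 11.3, 10.5 and 12.9 CPM in ad libitum and 4.79, 6.64 and 9.55 CPM in restricted livers. In ovary ZNRF3 was at 17.4, 14.7 and 17.9 CPM in ad libitum and 22.4, 44.7 and 39.2 CPM in restricted hens, and the interaction was 1.81 ± 0.32. ADAMTS17, a secreted metalloprotease, had the same pattern, with 15.3, 9.75 and 7.43 CPM against 3.88, 4.54 and 4.86 CPM in liver. In ovary ADAMTS17 was at 12.3, 10.003 and 6.08 CPM against 12.5, 13.8 and 17.0 CPM, and the interaction was 1.89 ± 0.34.

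The remaining genes of this direction were low in liver or differed there alone. DUOX2, an oxidase that makes hydrogen peroxide, was at 14.1, 3.02 and 8.62 CPM in ad libitum and 1.40, 0.504 and 0.251 CPM in restricted livers, and at 0.196 to 0.590 CPM in all ovaries (interaction 3.81 ± 0.77). ARFGEF3, a guanine nucleotide exchange factor family member, was at 13.2, 8.48 and 8.08 CPM against 1.73, 5.47 and 2.01 CPM in liver and overlapped in ovary (interaction 1.87 ± 0.42). ARHGAP40, a GTPase activating protein, had 16.0 to 18.8 CPM against 6.69 to 11.3 CPM in liver (interaction 1.35 ± 0.28). SLC4A11, a transporter of the bicarbonate carrier family, had 2.05 to 3.51 CPM against 1.24 to 1.76 CPM in liver and 35.1 to 80.2 CPM against 71.6 to 117 CPM in ovary (interaction 1.48 ± 0.31). DOCK3, a Rac activator best known from neurons, had 0.754 to 2.05 CPM against 0.168 to 0.589 CPM in liver (interaction 2.77 ± 0.64). SPHKAP, an anchoring protein of protein kinase A, rested on 1, 15 and 2 counts in ad libitum and 1, 0 and 0 counts in restricted livers, and its ovary level in hen R1 was 7.79 CPM against 0.318 to 2.48 CPM elsewhere. Its estimate of 5.04 ± 1.10 therefore had little depth behind it, and it was the only 1 of the 10 whose liver to ovary ratios overlapped. All 10 kept their sign when any hen was left out.

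**Figure D3:**
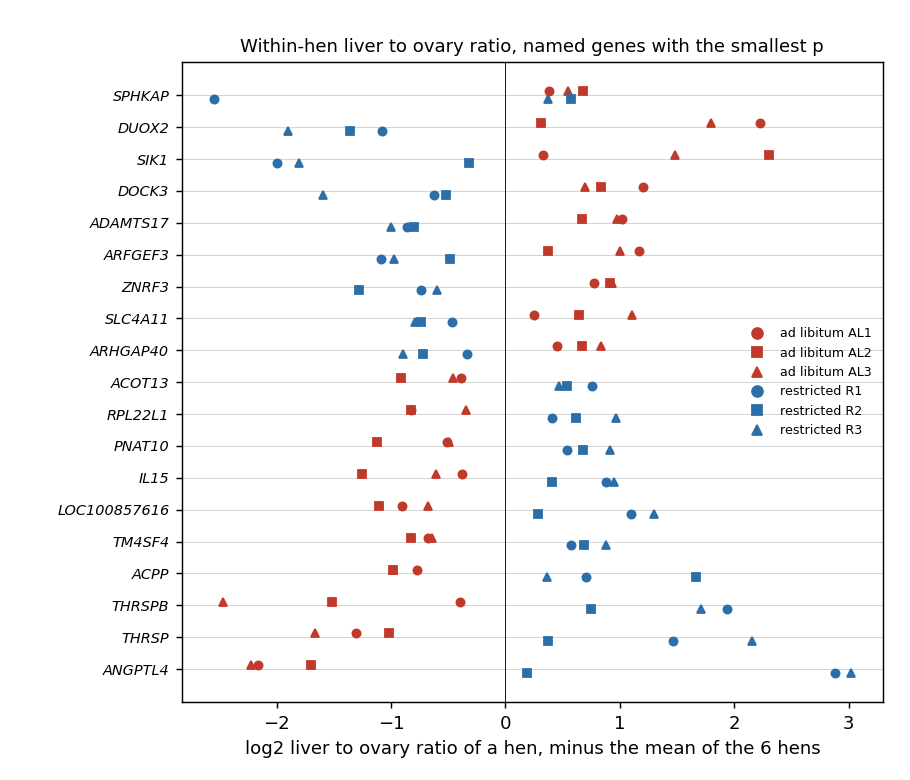
Log2 ratio of liver to ovary level in each hen, centred on the mean of the 6 hens, for named genes with the smallest interaction p. Red ad libitum hens and blue restricted hens separate for every gene except SPHKAP, a pattern that the choice by p favours.

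In the list of 14 liver plasma proteins, 11 had negative and 3 positive interactions. TTR, PLG and AHSG were lower at p below 0.05, against 3.87% of all genes tested and 6.71% of genes with a symbol, none was higher, and the median interaction was -1.04. The median log2 fold change of the list was 0.17 in liver and 1.35 in ovary. ALB and PLG were among the genes that the study had called on these ovaries, so their values are not independent evidence. TTR, the thyroid hormone and retinol carrier transthyretin, was at 9.58, 2.93 and 4.82 CPM in ad libitum ovaries and 1.80, 2.03 and 0.806 CPM in restricted ovaries, without overlap, and its interaction was -2.38 ± 0.77. PLG, the precursor of plasmin, was at 3.46, 0.640 and 2.01 CPM against 0.714, 0.171 and 0.312 CPM in ovary (interaction -2.11 ± 0.80), and AHSG, the carrier fetuin, at 2.99, 0.240 and 2.67 CPM against 1.15, 0.0490 and 0.312 CPM (interaction -2.60 ± 1.09), and in both genes the groups overlapped through hen AL2. Leaving out hens moved the count of lower genes in this list between 1 and 7, with 7 without hen AL2 and 1 without hens AL1, AL3, R2 or R3. Over all genes tested, 452 had p below 0.05 without hen AL2. Without hens AL1, AL3, R2 and R3 there were 1238, 334, 682 and 439. Without the hen block 5 genes of the list were lower. Albumin, ALB, had an interaction of -2.09 ± 1.59.

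The yolk precursor and lipoprotein list had a median interaction of -1.71 over 12 genes, 9 negative and 3 positive, which moved between -2.19 without hen R1 and -0.86 without hen AL1, with a median log2 fold change of 0.24 in liver and 1.95 in ovary. The study had reported VTG1, VTG2, APOB and APOV1 as higher in these same ad libitum ovaries. Their direction is therefore not independent evidence. APOA4, an apolipoprotein, was the only 1 of the 12 with p below 0.05. At that p 3.87% of all genes tested were lower, and of genes with a symbol 6.71%, so nothing is read from this count. The APOA4 level was 0.846, 0.240 and 0.420 CPM in ad libitum and 0.186, 0.0245 and 0.104 CPM in restricted ovaries (interaction -2.82 ± 0.80). The vitellogenin VTG2 (-1.93 ± 1.70) and APOB, the core protein of VLDL (-2.41 ± 1.68), had standard errors close to their size. The count of lower genes in the list was 4 without hen AL2 and 2 without hen AL1. Without hen AL2, 452 of 13199 genes tested had p below 0.05, of which 212 were higher. Without hen AL1 there were 1238 of 13252, of which 441 were higher. VLDLR, the receptor through which the oocyte takes up yolk lipoprotein, and MTTP, which loads lipid onto APOB, had positive interactions of 0.65 ± 0.42 and 0.33 ± 0.58.

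The same ovaries differed in hepatocyte markers, of which the study had picked ALB on these samples. These summed to 158, 16.2 and 85.9 CPM in the ovaries of ad libitum hens AL1, AL2 and AL3 and to 34.1, 11.9 and 13.7 CPM in restricted hens R1, R2 and R3, overlapping through hen AL2, and all 5 markers measured were above 0. Relative to the same hen's liver these sums were 0.0678%, 0.00628% and 0.0311% in ad libitum hens and 0.0127%, 0.00529% and 0.00478% in restricted hens. Over 177 genes whose liver level was more than 100-fold above the ovary level, 137 had a negative interaction. Of these 177 genes 49 (27.7%) were lower at p below 0.05, against 3.87% of all genes, while 4 were higher. The 177 genes had a median log2 fold change of 0.05 in liver and 0.90 in ovary, and a median interaction of -0.97. Genes with a smaller excess in liver also had more lower than higher members, with smaller medians. Of 2264 genes 2 to 10-fold above ovary in liver, 250 (11.04%) were lower and 40 higher. Of 463 genes 10 to 100-fold above ovary, 48 (10.37%) were lower and 15 higher. The median log2 fold change in ovary was 0.14 for the 2264 genes and 0.15 for the 463 genes. Their median interactions were -0.29 and -0.24. Of 6212 genes within 2-fold, 1.771% were lower and 1.642% higher. Of 3101 genes 2 to 10-fold above liver in ovary, 1.064% were lower and 3.45% higher. The median over the 177 genes of the ovary level as a share of the hen's liver level was 0.132%, 0.0628% and 0.103% in ad libitum hens and 0.0696%, 0.0469% and 0.0628% in restricted hens. The share was not the same for every gene. For TM4SF4 it was 0.126%, 0.133% and 0.110% against 0.0324%, 0.0138% and 0.0196%, and for ALB it was 0.0639%, 0.00391% and 0.0284% against 0.0114%, 0.00290% and 0.00344%. TM4SF4 had the smallest p of all genes tested, which favours even shares within a group, so nothing is read from this contrast. The median ad libitum share over the median restricted share was 5.89 for the marker sum, 6.45 for TM4SF4 and 8.26 for ALB. The part of hepatocyte RNA in the ovary results of these genes was not tested.

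Other genes of liver metabolism with such a profile were HPD, FTCD, ELOVL2, FBP1 and CYP1A2. HPD, an enzyme of tyrosine breakdown, was at 3006 to 3053 CPM in ad libitum livers and 3011 to 3871 CPM in restricted livers, and at 2.94, 2.29 and 2.04 CPM against 1.02, 0.759 and 0.884 CPM in ovary. The ovaries did not overlap and hen AL2 was like the other ad libitum hens, as choosing by small p favours. The interaction of HPD was -1.61 ± 0.38, with a DESeq2 FDR of 0.00236. FTCD, of histidine breakdown, had an interaction of -2.99 ± 0.79 on ovary levels of 0 to 0.323 CPM. ELOVL2, a fatty acid elongase, had -1.78 ± 0.54 on ovary levels of 1.20 to 3.39 CPM against 0.441 to 0.910 CPM. FBP1, the gluconeogenic fructose bisphosphatase, had -1.39 ± 0.48 on ovary levels of 7.23 to 8.51 CPM against 2.73 to 5.66 CPM. CYP1A2, a xenobiotic oxidase, had -1.44 ± 0.51 on ovary levels of 0.0735 to 0.348 CPM, from 3 to 14 counts per library. Its liver counts were 10005 in hen R3 against 2408 to 3686 in the other hens. Another gene ID named CYP1A2 in the list did not have p below 0.05. ASS1, which makes argininosuccinate, had -1.22 ± 0.48 with 15.3, 21.7 and 21.2 CPM against 11.7, 9.06 and 4.08 CPM in ovary, and GSTA4, a glutathione transferase, -0.90 ± 0.26. AASS, of lysine breakdown (1.31 ± 0.51), and CYP3A7, a steroid and drug oxidase (1.16 ± 0.43), were the members of the amino acid and xenobiotic lists that were higher. In the amino acid catabolism list 3 of 11 were lower and 1 higher, and in the bile acid and xenobiotic list 2 of 14 were lower and 1 higher. At p below 0.05, 3.87% of all genes tested were lower and 2.26% higher, and of genes with a symbol 6.71% and 4.04%.

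**Figure D4:**
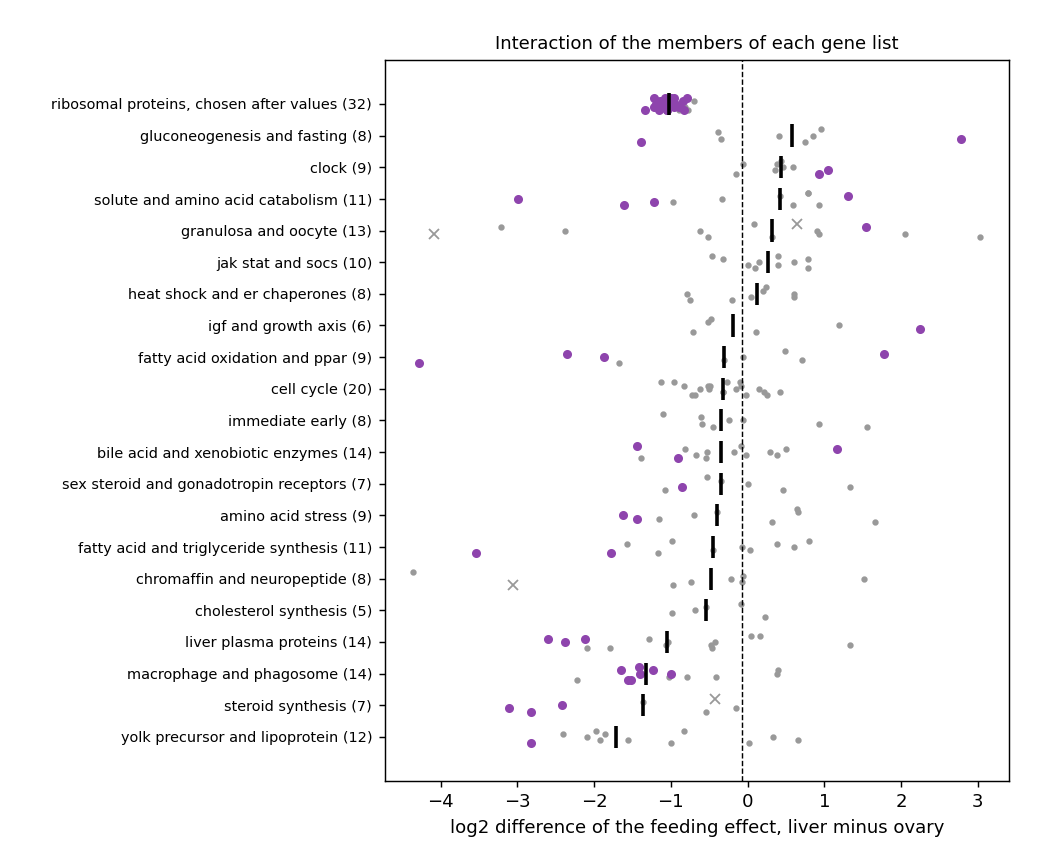
Interaction of each member of 20 gene lists and of the ribosomal protein genes, on the log2 scale, with the number of members in brackets; purple points have an unadjusted p below 0.05, crosses mark genes with no read in liver, bars are list medians and the dashed line is the median of all genes at -0.07. The yolk precursor, steroid synthesis, macrophage and plasma protein lists and the ribosomal protein genes have medians of -1.71 to -1.03.

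Macrophage and phagosome genes had the largest share of members at p below 0.05 among the lists, with 7 of 14 lower and none higher, and a median of -1.32. Of all genes tested 3.87% were lower at that p, and of genes with a symbol 6.71%. Their median log2 fold change was 0.33 in liver and 1.25 in ovary. Of these genes 8 had been picked by the study on these samples, so their direction is not independent evidence, and 5 of those 8 and 2 of the other 6 were lower at p below 0.05. SPI1, the transcription factor PU.1 of myeloid cells, was at 24.1, 26.0 and 31.1 CPM in ad libitum and 9.46, 15.5 and 3.98 CPM in restricted ovaries (interaction -1.40 ± 0.48). CTSS, the lysosomal cathepsin S, was at 125.2, 143 and 263 CPM against 72.5, 84.1 and 28.1 CPM in ovary and at 537, 344 and 271 CPM against 391, 417 and 351 CPM in liver (interaction -1.65 ± 0.59). In both genes the ovaries did not overlap and the livers did.

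Of the 14 genes, 10 did not overlap in ovary and were higher in the ad libitum hens, against 6.28% of all genes tested. They were 7 of the 8 that the study picked on these ovaries, a share that this choice raises, and 3 of the other 6. C1QA, a chain of complement C1q made by macrophages, was at 16.4, 29.9 and 31.2 CPM against 13.9, 12.7 and 5.22 CPM (interaction -1.56 ± 0.54). CYBB and NCF1, subunits of the phagocyte oxidase, had interactions of -1.41 ± 0.56 and -1.51 ± 0.52, and CD36, a scavenger receptor that also takes up fatty acids, of -1.002 ± 0.40. CTSD, a lysosomal protease of many cell types (0.39 ± 0.54), and MARCO, a scavenger receptor (0.39 ± 0.62), were the members with positive values. The sum of 4 macrophage markers, SPI1, CTSS, C1QA and CYBB, was 180 to 345 CPM in ad libitum and 38.9 to 124 CPM in restricted ovaries, without overlap. All but C1QA are among the genes that the study picked. In liver the sum was 460 to 865 CPM against 586 to 673 CPM, and what part the number of macrophages had in these sums was not tested. Other blood cell markers were mixed. B cell markers summed to 1084, 1555 and 880 CPM in ad libitum and 826, 486 and 300.4 CPM in restricted ovaries, without overlap. Of 3 B cell markers 1 had a lower interaction at p below 0.05 and 1 a positive interaction (median -0.44). T cell markers summed to 14.3 to 31.8 CPM against 9.04 to 20.9 CPM in ovary, with overlap, and 0 of 2 had p below 0.05. Of 4 erythroid markers 3 had a lower interaction at p below 0.05 (median -2.23), against 3.87% of all genes tested and 6.71% of genes with a symbol. Erythroid ovary sums were 279, 4526 and 438 CPM against 209.8, 529 and 60.9 CPM, which overlapped. The count of 7 macrophage and phagosome genes at p below 0.05 depended on how the hen entered the fit. It was 3 without the hen block and 3 with the hen as a random block in limma voom. It also depended on single hens, as it was 0 without hen AL3, 1 without hen R3 and 3 without hen AL2, and 8 without hen AL1, R1 or R2. The count over all genes tested moved as well, from 805 at p below 0.05 with all hens. It was 334 without hen AL3, 439 without hen R3 and 452 without hen AL2. Without hens AL1, R1 and R2 it was 1238, 1432 and 682. The list count and the count over all genes moved the same way without hens AL1, AL2, AL3, R1 and R3. Without hen R2 the list count rose while the count over all genes fell. Without the hen block the list count fell to 3, while 883 of all genes tested had p below 0.05. Whether these changes were particular to the list was not tested. The median of the list stayed between -1.70 and -0.73.

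Steroid synthesis genes, used mainly by theca and granulosa cells, had 3 of 7 members lower at p below 0.05, none higher and a median of -1.37, against 3.87% of all genes tested and 6.71% of genes with a symbol that were lower. Without the hen block 1 member was lower, and with the hen as a random block in limma voom 0. When genes had to pass the filter in both tissues, 2 members were left, of which 1 was lower (median -1.235). In that fit 683 of 10071 genes had p below 0.05, of which 309 were higher. STAR, which carries cholesterol into mitochondria, was at 43.9, 250 and 43.5 CPM in ad libitum ovaries and 19.1, 70.8 and 13.8 CPM in restricted ovaries (interaction -2.82 ± 0.94). HSD3B2, which forms progesterone, was at 31.9, 195 and 21.3 CPM against 6.89, 30.1 and 7.54 CPM in ovary and at 9.18 to 16.8 CPM in all livers (interaction -2.42 ± 0.85). In each gene hens AL2 and R2 were the highest of their groups, and the groups overlapped through hen R2. STAR had 0 to 8 counts and CYP11A1, the side chain cleavage enzyme, 0 to 2 counts per liver library, and CYP19A1, the aromatase, had no read in liver, so the liver side carried little or no information for them. STAR, CYP11A1 and CYP19A1 passed the filter only through their ovary levels, so nothing is read from the list count. Without hen AL2, whose ovary stood apart, 1 gene of the list was lower, as without hen R3. In those fits 452 of 13199 and 439 of 13180 genes tested had p below 0.05, of which 212 and 232 were higher. The median of the list moved between -2.53 and -0.32 when hens were left out in turn.

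Of 7 sex steroid and gonadotropin receptor genes 1 was lower at p below 0.05, and of 13 granulosa and oocyte genes 1 was higher (median 0.32). Of all genes tested 3.87% were lower and 2.26% higher at that p. NR5A2, a nuclear receptor of liver and granulosa cells, did not overlap in either tissue and in the same direction, with 184, 232 and 176 CPM against 157, 139 and 160 CPM in liver and 3.88, 5.60 and 3.66 CPM against 1.95, 2.16 and 1.46 CPM in ovary. Its interaction was -0.86 ± 0.28, from a larger fold change in ovary. ZP4, an egg coat protein, had an interaction of 1.54 ± 0.57 with 1 to 11 counts per liver library and 27.7 to 71.4 CPM against 60.4 to 99.8 CPM in ovary, where the groups overlapped. INHA and DAZL had no read in liver. Across all tested genes 215 had no read in liver and 2 none in ovary.

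Of 9 clock genes 2 were higher at p below 0.05, against 2.26% of all genes tested and 4.04% of genes with a symbol, none was lower, and the median was 0.43. Without the hen block 1 was higher. CRY1, a repressor of the clock, was at 97.8, 115 and 125.3 CPM in ad libitum and 78.2, 36.4 and 63.7 CPM in restricted livers, without overlap, and at 57.1 to 72.4 CPM in all ovaries (interaction 1.05 ± 0.38). PER2, its partner, was at 55.8, 110 and 86.3 CPM against 24.1, 43.7 and 24.2 CPM in liver and overlapped in ovary (interaction 0.93 ± 0.38). Without hen AL2 or hen AL3 neither had p below 0.05. In those fits 212 of 13199 and 135 of 13217 genes tested were higher at that p, against 297 of 13139 with all hens. The time of day at which each hen was sampled is not given in the sources used here.

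Of the amino acid stress list, ASNS, the asparagine synthetase, and CEBPB, a transcription factor, were lower (2 of 9, median -0.39, which was 0.05 without hen R3). At p below 0.05, 3.87% of all genes tested were lower and 2.26% higher, and of genes with a symbol 6.71% and 4.04%. ASNS was at 63.6, 43.4 and 33.0 CPM against 137, 48.7 and 114 CPM in liver and had an interaction of -1.44 ± 0.43, and CEBPB had -1.63 ± 0.56. In the IGF list IGFBP1 was the 1 member of 6 with p below 0.05 (median -0.18, and 0.23 without hen AL3), and in the gluconeogenesis and fasting list SIK1 was higher and FBP1 lower of 8 (median 0.58). No member had p below 0.05 in the JAK-STAT and SOCS list (0 of 10, median 0.27), the cell cycle list (0 of 20, median -0.32), the heat shock and chaperone list (0 of 8, median 0.12), the immediate early list (0 of 8, median -0.34) or the chromaffin and neuropeptide list (0 of 8, median -0.48).

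These lists changed when single hens were left out. Without hen R1, 5 of 20 cell cycle genes were higher with a median of 0.74, 4 of 8 immediate early genes were lower with a median of -0.94, and the JAK-STAT median was -0.22. In that fit 1432 of 13258 genes had p below 0.05, of which 500 were higher. Without hen AL2 the chromaffin median was 0.73 and the chaperone median -0.31. Without hen AL3 2 of 8 chaperones were higher, and so were 135 of 13217 genes tested in that fit. Single libraries stood far from the others for several members. The chromogranins CHGA and CHGB, stored in endocrine granules, were at 1057 and 2049 CPM in the ovary of hen AL2 against 24.7 to 83.4 and 32.8 to 87.1 CPM in the other ovaries, and their interactions of -0.97 ± 1.28 and -0.74 ± 1.46 turned to 0.59 and 0.84 without that hen. The mitotic kinase AURKA was at 7.93 CPM in the liver of hen R1 against 0.862 to 2.34 CPM in the other livers, and the cyclin CCNB2 at 26.4 CPM against 4.42 to 7.02 CPM. Their interactions of -0.51 ± 1.09 and -0.27 ± 1.01 turned to 0.82 and 0.86 without hen R1. JAK1 (0.10 ± 0.39), IL6ST (0.14 ± 0.52), the chaperones HSPA5 (0.05 ± 0.56) and HSP90B1 (0.20 ± 0.53) and the immediate early factors EGR1 (-0.24 ± 0.64) and JUN (-0.60 ± 0.39) had interactions smaller than 2 SE.

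Ribosomal protein genes were grouped only after their values had been seen, so the group was not tested and its counts reflect that choice. All 32 such genes with a symbol, among them both gene IDs named RPL17 and the paralogs RPL22L1 and RPL10L, had negative interactions, from -1.34 to -0.70 with a median of -1.03. Singly, 25 were lower at p below 0.05, against 3.87% of all genes tested and 6.71% of genes with a symbol. Summed over the genes, the liver level was 14790, 13564 and 15858 CPM in ad libitum hens and 25530, 17964 and 25119 CPM in restricted hens, which did not overlap. The ovary sum was 5901, 11017 and 10896 CPM against 9814, 5461 and 6121 CPM, which overlapped through hens AL1 and R1. The median interaction stayed between -1.08 and -0.96 under the scalings tried and between -1.31 without hen AL1 and -0.81 without hen AL2. Genes of 1 complex measured in the same libraries are not independent of each other. Any ribosomal protein genes without a symbol were not in the group.

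**Figure D5:**
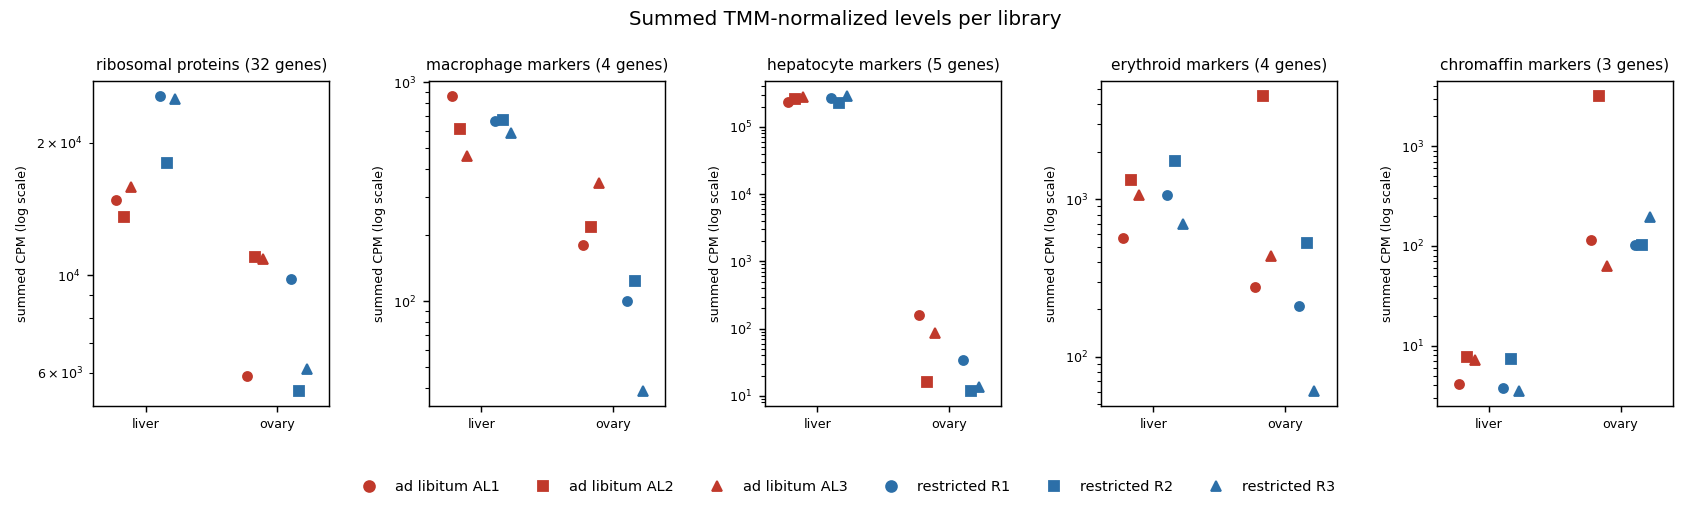
Summed TMM-normalized levels (CPM, log scale) of 32 ribosomal protein genes and of 4 sets of cell type markers in each library, with 1 point per hen. Ribosomal protein genes are lower in all 3 ad libitum livers, macrophage markers are higher in all 3 ad libitum ovaries, and the ovary of hen AL2 stands apart for erythroid and chromaffin markers.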

How the data were processed

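The authors sequenced RNA of 3 tissues as paired reads, mapped them to Gallus_gallus-5.0 with TopHat2 2.1.1 and Bowtie2 2.0.6 and deposited a table of raw gene counts, not normalized, with Ensembl IDs. Strand and multiple-mapping settings of the counting are not given in the sources used here, so overlapping or duplicated genes could share reads. Fat libraries were not used. The interaction was fitted with edgeR 4.0.16 (quasi-likelihood test, TMM, Benjamini-Hochberg FDR below 0.1) with hen, tissue and tissue by feeding terms, and each tissue was fitted alone, with log2 fold changes from a fit on the genes of the interaction. DESeq2, the likelihood ratio test, limma voom, other scalings and filters, no hen block and leaving out each hen were tried. The hens pair the libraries because both tissues came from the same animal, although same-hen deviations had a mean correlation of -0.0328 (-0.162 to 0.194). The fits were also run on counts simulated from their own fitted means and dispersions, with changes placed only in genes above a minimum mean count. No result here rests on that run. Symbols came from the study's tables (5824 of 17108 genes). Named were the 10 genes of smallest p in each direction, and per list the members with p below 0.05 (at most 6) or otherwise the 2 most abundant. Genes outside this rule were named after their values were seen, and some genes that meet it are not reported here. Members and lists were chosen with earlier results of these data known. No intervals from counts are given, and positions are not given because the builds differ.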

Additional observations from a re-analysis of the deposited data

How the results depend on the processing

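With DESeq2 the interaction had 38 genes (3 higher, 35 lower) and with the likelihood ratio test 34 (12 higher, 22 lower), against 0 with the quasi-likelihood test, and leaving out hens gave 0 to 1, the 1 being lower. The liver had 1 gene, 241 with DESeq2 (134 higher, 107 lower), 146 with the likelihood ratio test (92 higher, 54 lower), 0 at FDR below 0.05 and 0 to 104 without single hens (0 to 45 higher, 0 to 59 lower), and the ovary had 0, 48 (35 higher, 13 lower) and 24 (19 higher, 5 lower). Genes with p below 0.05 numbered 334 to 1432 without single hens. Without the hen block the interaction also called 0 genes and had 883 at p below 0.05, and the interaction of EGR1 turned to 0.30 in that unpaired fit, while no other named gene changed sign without the block. In that fit the list members at p below 0.05 went from 7 to 3 lower for macrophage, 3 to 1 for steroid synthesis and 3 to 5 for plasma proteins, and from 2 to 1 higher for clock genes. HSPA5 turned to -0.0025 with library size alone. Leaving out hens in turn, the interaction ranged from -0.16 to 0.71 for HMGCS1, -0.42 to 0.60 for IL6ST, -0.14 to 0.48 for JAK1, -1.26 to 0.82 for AURKA, -1.08 to 0.86 for CCNB2, -2.03 to 0.59 for CHGA, -2.28 to 0.84 for CHGB, -0.41 to 0.61 for HSPA5, -0.19 to 0.71 for HSP90B1 and -0.92 to 0.28 for EGR1, none of which had p below 0.05 with all hens. Of 64 named genes 54 kept their sign under every alternative. The cause was not tested. With 3 hens per group and 4 residual degrees of freedom, the median SE of an interaction was 0.42 on the log2 scale.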

Other observations

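Further genes passed an FDR of 0.1 for the interaction only in DESeq2 or the likelihood ratio test, and those given here were picked after their values were seen. Among those with a higher feeding effect in liver, NOXO1, an organizer of a superoxide-making oxidase, was at 85.2, 108.5 and 63.8 CPM in the ad libitum livers and 40.2, 29.7 and 14.7 CPM in the restricted livers. In ovary NOXO1 was at 13.98, 8.62 and 10.4 CPM against 15.2, 21.4 and 36.2 CPM, so that the groups did not overlap in either tissue and lay in opposite orders (interaction 2.74, likelihood ratio FDR 0.059). C5, a complement protein, was at 1356, 2135 and 1295 CPM against 1105, 927 and 750 CPM in liver and overlapped in ovary (interaction 1.43, DESeq2 FDR 0.0965).

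HPGDS, the prostaglandin D synthase of blood-forming cells, had the opposite order in each tissue to NOXO1. It was at 458, 527 and 399.7 CPM against 848, 619 and 697 CPM in liver and at 40.7, 52.01 and 58.3 CPM against 36.2, 29.5 and 20.7 CPM in ovary (interaction -1.47, DESeq2 FDR 0.00619). LBFABP, the liver basic fatty acid binding protein, overlapped in both tissues (interaction -2.66, DESeq2 FDR 0.00694). In liver it was at 6302, 4805 and 4659 CPM against 11501, 5821 and 7172 CPM. Its ovary level was 3.73, 0.587 and 2.07 CPM in ad libitum and 0.9, 0.245 and 0.286 CPM in restricted hens. The part of hepatocyte RNA in these ovary levels was not tested.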
